A study of Mus musculus with 19 samples.

Results

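The genes described here, in mouse epididymal white adipose tissue (eWAT), are inflammatory cytokines and the inflammasome that processes them, 10 of the 24237 genes with usable values. They were taken by name, though with earlier results of these data known, so they are not a blind draw of genes. They are the cytokines Tnf, Il1b, Il6, Il10, Il18 and Tgfb1, the IL-1 receptor antagonist Il1rn, and the inflammasome genes Nlrp3, Pycard and Casp1. The study asked what a lack of magnesium (Mg2+) does to energy and lipid metabolism, and RNA-seq was run on eWAT of 19 male C57Bl6/J mice that had been 9 to 10 weeks old at the start and had spent 17 weeks on their diets. The groups were a low-fat diet with normal Mg2+ (NormMg-LFD, n = 4), a low-fat diet with low Mg2+ (LowMg-LFD, n = 5), a high-fat diet with normal Mg2+ (NormMg-HFD, n = 5) and a high-fat diet with low Mg2+ (LowMg-HFD, n = 5). Fat gave 10% of energy in the low-fat diets and 60% in the high-fat diets, as palm oil in both, and MgO made up 0.21% of diet weight at normal Mg2+ and 0.03% at low Mg2+. No genetic change was present in any group, each library came from 1 mouse, and the sequenced mice had been drawn at random within each group.

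TNF, IL-1 beta and IL-6 are secreted mostly by activated macrophages and neutrophils and, in obese fat, are known for impairing the response of adipocytes to insulin. IL-1 beta and IL-18 are made as inactive precursors, which caspase-1 cuts after the sensor NLRP3 and the adaptor ASC (the product of Pycard) have assembled with it into the inflammasome. The IL-1 receptor antagonist occupies the IL-1 receptor without signalling, and IL-10 and TGF-beta 1 restrain inflammation, TGF-beta 1 also driving fibrosis. Transcript levels say nothing on their own of cleavage or secretion, the steps at which IL-1 beta and IL-18 are activated.

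Libraries held between 12986441 and 13027028 reads each (median 13016770), of which 86.12% to 90.41% were mapped, so depth hardly differed between groups. Adipocyte genes were abundant in all 19 libraries, with Adipoq, the adipokine adiponectin, at 1071.72 FPKM or above (FPKM, fragments per kilobase of transcript, scaled to the mapped reads of the library, a level per transcript length). Against this, 3 libraries stood apart from the rest in marker genes of other cells or tissues. NormMg-HFD replicate 3 carried the neutrophil genes at a summed 155.77 FPKM, against at most 32.92 FPKM in any other mouse. The groups also differed in that sum, as given with the marker lists below. NormMg-LFD replicate 3 carried genes of the exocrine pancreas at 1516.7 FPKM (at most 52.04 FPKM elsewhere), and LowMg-LFD replicate 4 carried genes of the epididymis at 121.08 FPKM (at most 3.61 FPKM elsewhere). Calls for the members and their pathway genes with Mg2+ on the high-fat diet are given with and without these libraries below. The study also left out a LowMg-HFD library for pancreatic contamination, which the labels do not name. No LowMg-HFD library here stood out in those genes (21.12 to 44.84 FPKM summed), so which one was meant could not be told from the files. The values here are of all 19 libraries unless a mouse is said to be left out.

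The levels of the 10 genes spanned from 0 to 64.67 FPKM in single mice. By the mean over the 19 mice, Tgfb1 was the most abundant at 31.2 FPKM, higher than 85.5% of the 19000 genes tested (those with a mean above 0.1 FPKM). Pycard at 12.5 FPKM, Il1rn at 12.2 FPKM and Casp1 at 11.9 FPKM followed, close to each other in mean but not in spread over the diets. Il18 averaged 4.72 FPKM. The others were low: Il1b averaged 1.96 FPKM, Tnf 0.927 FPKM, Nlrp3 0.687 FPKM, Il10 0.383 FPKM and Il6 0.335 FPKM, and Il6 was listed at 0 in 9 mice, Il10 in 6 and Il1b in 3. The order depended on the diet: Il1rn was below Il18 in every low-fat mouse and above it in the high-fat mice other than LowMg-HFD replicates 3 and 4. Of the 10 genes, 4 (Il1rn, Tgfb1, Casp1 and Pycard) reached 8 FPKM in at least 4 mice.

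**Figure D1:**
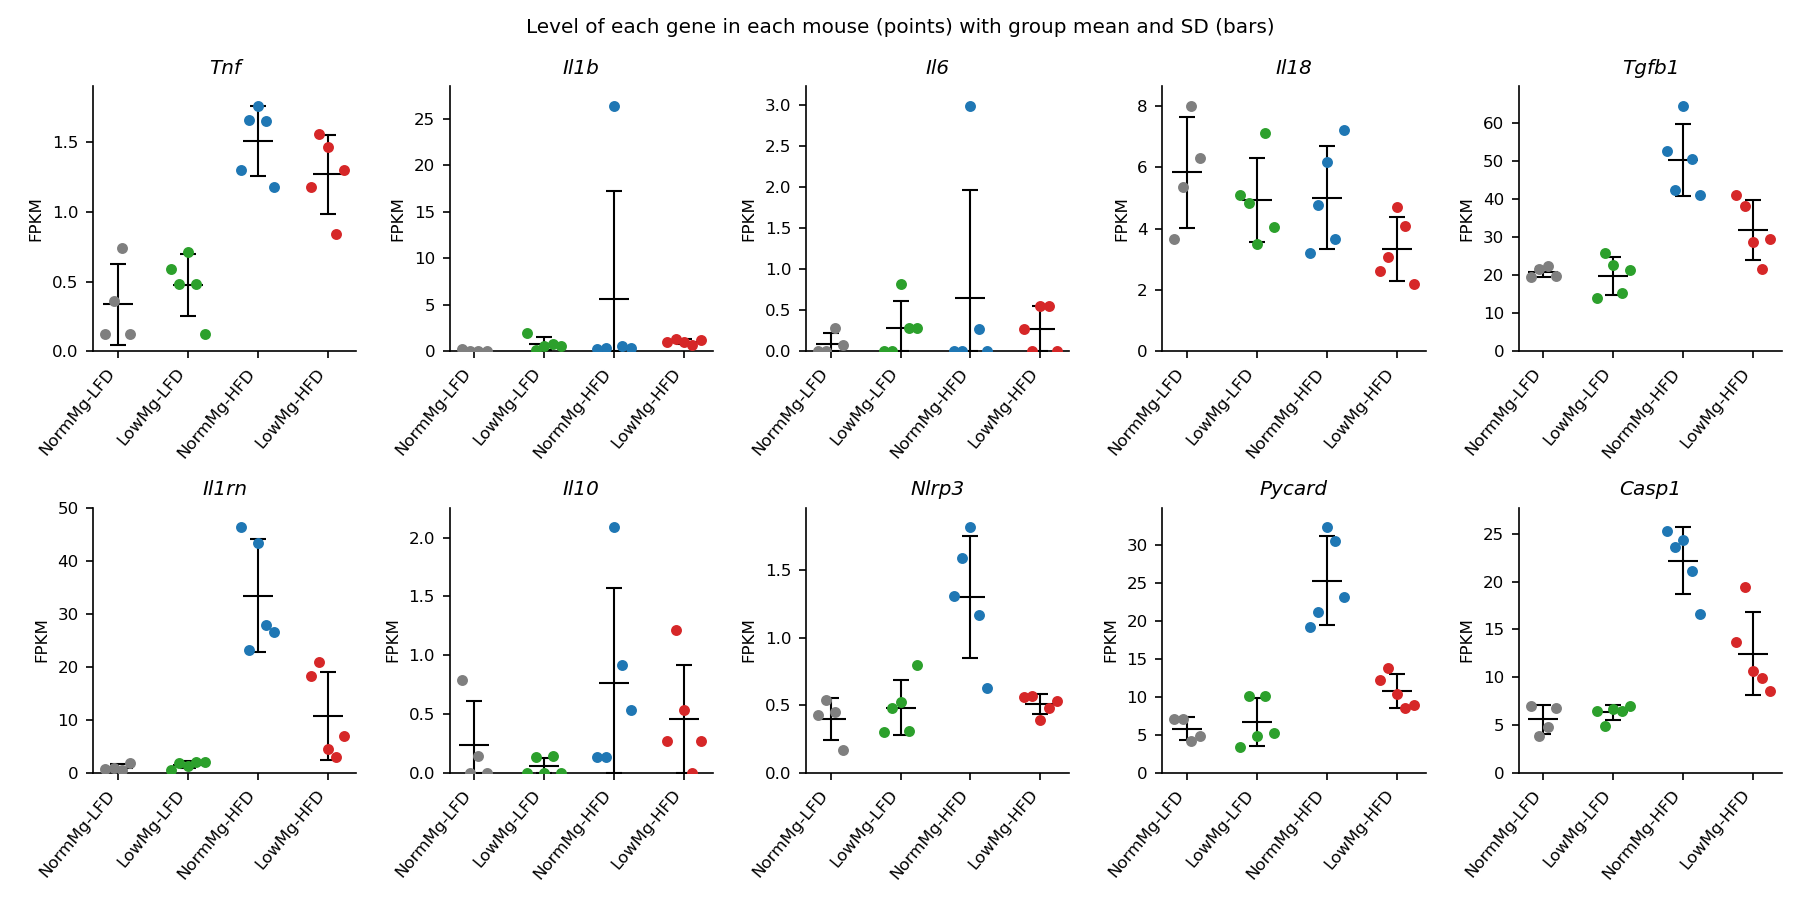
FPKM of the 10 genes in each of the 19 mice (points, by group on the x axis, 4 NormMg-LFD mice and 5 in each other group; each panel has its own linear y axis from 0), with the group mean (bar) and SD (error bar, drawn no lower than 0). Il1rn, Tgfb1, Nlrp3, Casp1 and Pycard were highest in NormMg-HFD, and the Il1b and Il6 means of NormMg-HFD rest on replicate 3, at 26.41 and 2.99 FPKM.

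The windows of 250 bases before the RefSeq start of 6 of these genes are shown because 5 of the genes (Il1rn, Tgfb1, Nlrp3, Casp1 and Pycard) were lower together in LowMg-HFD than in NormMg-HFD, and Il1b did not pass that test. The sequences are those of RefSeq on GRCm38.p6, written 5′ to 3′ on the strand of the gene, with motif matches in capitals. Where a gene has several windows (3 for Il1rn, 2 for Nlrp3), the one nearest to the start of the gene was used, and the others were not searched. By the gene positions given, the Il1rn window runs 7 bases into the gene and the Nlrp3 window 1 base. The gene positions are those of the mouse annotation on GRCm38, and all 10 genes are protein-coding.
Il1rn, window chr2:24336610-24336859 on the plus strand, gene chr2:24336853-24351494: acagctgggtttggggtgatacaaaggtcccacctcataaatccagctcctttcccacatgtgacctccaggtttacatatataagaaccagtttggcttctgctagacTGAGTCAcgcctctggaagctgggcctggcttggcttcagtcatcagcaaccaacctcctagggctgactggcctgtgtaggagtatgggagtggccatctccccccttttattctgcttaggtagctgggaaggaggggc
Pycard, window chr7:127993868-127994117 on the minus strand, gene chr7:127989708-127993867: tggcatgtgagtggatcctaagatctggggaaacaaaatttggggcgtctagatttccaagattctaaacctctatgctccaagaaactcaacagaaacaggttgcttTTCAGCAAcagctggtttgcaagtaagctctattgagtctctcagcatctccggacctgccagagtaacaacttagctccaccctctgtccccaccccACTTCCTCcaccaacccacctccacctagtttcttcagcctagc
Casp1, window chr9:5298267-5298516 on the plus strand, gene chr9:5298517-5307265: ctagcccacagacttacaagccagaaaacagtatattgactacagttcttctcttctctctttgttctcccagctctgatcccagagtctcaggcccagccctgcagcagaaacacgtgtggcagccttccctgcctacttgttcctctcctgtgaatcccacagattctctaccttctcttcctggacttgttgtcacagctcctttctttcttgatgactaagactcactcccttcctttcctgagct
Nlrp3, window chr11:59541319-59541568 on the plus strand, gene chr11:59541568-59566956: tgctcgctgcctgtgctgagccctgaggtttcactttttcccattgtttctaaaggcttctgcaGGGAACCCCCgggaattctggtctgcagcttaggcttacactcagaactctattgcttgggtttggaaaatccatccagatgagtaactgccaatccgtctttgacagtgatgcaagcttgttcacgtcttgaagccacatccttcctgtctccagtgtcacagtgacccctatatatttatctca
Tgfb1, window chr7:25686752-25687001 on the plus strand, gene chr7:25687002-25705077: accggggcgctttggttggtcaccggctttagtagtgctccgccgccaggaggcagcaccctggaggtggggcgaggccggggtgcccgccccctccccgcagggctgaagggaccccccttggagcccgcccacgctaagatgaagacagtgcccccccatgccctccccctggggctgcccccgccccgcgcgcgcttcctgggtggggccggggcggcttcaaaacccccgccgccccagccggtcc
Il1b, window chr2:129371140-129371389 on the minus strand, gene chr2:129364570-129371139: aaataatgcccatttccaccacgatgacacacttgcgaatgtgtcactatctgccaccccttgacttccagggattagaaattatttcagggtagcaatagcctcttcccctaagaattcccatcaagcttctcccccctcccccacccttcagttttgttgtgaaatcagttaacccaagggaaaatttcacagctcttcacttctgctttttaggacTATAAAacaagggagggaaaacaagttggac
The motifs searched were NF-kB (by its name, in a form with A or T at position 6, both strands), AP-1 (TGANTCA, both strands), PU.1 (GAGGAAGT, both strands), C/EBP (TTGCNNAA, both strands), STAT (TTCNNNGAA, both strands) and the TATA box (TATAAA, strand of the gene). Counted back from the 3′ end of the window to the first base of the match, Il1rn held an AP-1 match at 141 bases, Nlrp3 an NF-kB match at 186 on the opposite strand, Il1b a TATA box at 31, and Pycard a C/EBP match at 142 and a PU.1 match at 44, both on the opposite strand to the spelling given. Casp1 and Tgfb1 held no match in this window to the forms searched. With any base allowed at position 6 of the NF-kB motif, a form added after the data were seen, Tgfb1, Nlrp3 and Il6 held a match, as did 7.25% of all windows. Of the other members, Tnf held a TATA box at 29, Il6 held an AP-1 match at 249, a C/EBP match at 128 on the opposite strand and an NF-kB match at 44, Il18 held none, and no window was at hand for Il10. Among all 32851 windows of this length, 3.9% held the NF-kB motif, 6.75% AP-1, 2.44% PU.1, 9.56% C/EBP, 7.02% STAT and 7.59% the TATA box. A match describes letters and not a bound site.

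The high-fat diet at normal Mg2+ was set against the low-fat diet first (NormMg-HFD against NormMg-LFD). Here 6 of the 10 genes were higher: Il1rn, Pycard, Casp1, Tgfb1, Tnf and Nlrp3. None of the 10 was lower, and Il1b, Il6, Il10 and Il18 did not pass the test. In each of the 6, the lowest NormMg-HFD mouse stood above the highest NormMg-LFD mouse, as it did in 2388 of the 19000 genes tested (12.6%). Over all 19000 genes tested with limma on log2(FPKM + 1), 2487 were higher (13.1%) and 1384 were lower (7.28%) at a Benjamini-Hochberg adjusted p under 0.05, and the median log2 difference was 1.07 for the 10 genes and -0.03 for all genes. Centring each library on its median raised the share of calls that were lower from 35.8% to 47%, and the 6 genes stayed called in every alternative fit that tested them. Differences are on the log2(FPKM + 1) scale, which understates changes of genes under about 1 FPKM.

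Il1rn was at 0.59, 0.86, 0.43 and 1.85 FPKM in the NormMg-LFD mice. In the NormMg-HFD mice it was at 46.38, 23.14, 43.4, 27.85 and 26.53 FPKM. The rise was the 10th largest of the 19000 genes, from 0.933 ± 0.637 (SD, n = 4) to 33.5 ± 10.6 FPKM (n = 5), a ratio of means of 35.9 and a log2 difference of 4.16 (95% CI 3.26 to 5.05, adjusted p = 5.64e-06, limma). Among the inflammasome genes, Pycard rose from 5.79 ± 1.49 to 25.3 ± 5.87 FPKM, 4.36-fold (log2 difference 1.95, 95% CI 1.41 to 2.49, adjusted p = 2.94e-05). Casp1 rose from 5.58 ± 1.49 to 22.2 ± 3.51 FPKM, 3.98-fold (log2 difference 1.83, 95% CI 1.41 to 2.25, adjusted p = 7.24e-06). The sensor Nlrp3 stayed low in both groups and yet did not overlap between them: 0.43, 0.54, 0.45 and 0.17 FPKM against 1.31, 1.59, 1.82, 1.17 and 0.63 FPKM (log2 difference 0.70, 95% CI 0.37 to 1.03, adjusted p = 0.0032).

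Of the other cytokines, Tgfb1 rose 2.41-fold, from 20.9 ± 1.40 to 50.3 ± 9.47 FPKM (log2 difference 1.21, adjusted p = 0.00013, limma). Tnf was at 0.12, 0.36, 0.74 and 0.12 FPKM in NormMg-LFD and at 1.3, 1.66, 1.76, 1.65 and 1.18 FPKM in NormMg-HFD (log2 difference 0.93, 95% CI 0.58 to 1.28, adjusted p = 0.00047). The ratio of its means was 4.51, of low levels on both sides. Il18 was the 1 member whose mean was not above that of the low-fat mice, at 5.00 ± 1.68 against 5.84 ± 1.81 FPKM, with a log2 difference of -0.19 (95% CI -0.70 to 0.31, adjusted p = 0.617). Il10 differed by 0.45 on the log2 scale (95% CI -0.13 to 1.03, adjusted p = 0.283), and Il1b and Il6 are described below.

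Low Mg2+ was then set against normal Mg2+ on the high-fat diet (LowMg-HFD against NormMg-HFD). On low Mg2+, 5 of the 10 were lower, namely Il1rn, the inflammasome genes Pycard, Casp1 and Nlrp3, and Tgfb1, and none was higher. Tnf, Il1b, Il6, Il10 and Il18 did not pass the test. Over all genes tested, 1030 were lower (5.42%) and 364 were higher (1.92%), and the median log2 difference was -0.53 for the 10 genes and 0.03 for all genes. In Il1rn, Pycard and Nlrp3 every LowMg-HFD mouse was below every NormMg-HFD mouse, as in 978 of all genes tested (5.15%).

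Il1rn was at 18.2, 20.97, 4.39, 2.92 and 6.83 FPKM in the LowMg-HFD mice, every one below the lowest NormMg-HFD mouse at 23.14 FPKM. Replicates 1 and 2 stood well above the other 3, close to the NormMg-HFD mice. Its mean was 10.7 ± 8.32 FPKM (SD, n = 5), 3.14-fold lower than in NormMg-HFD (log2 difference -1.83, 95% CI -2.68 to -0.99, adjusted p = 0.01, limma). Pycard was at 12.2, 13.86, 10.34, 8.48 and 8.87 FPKM in LowMg-HFD and at 19.15, 21.12, 32.38, 30.57 and 23.19 FPKM in NormMg-HFD. The groups did not overlap, with a 2.35-fold lower mean (log2 difference -1.15, 95% CI -1.66 to -0.64, adjusted p = 0.0089). It was the 1 member called in all 30 alternative fits.

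Casp1 was at 25.34, 23.64, 24.35, 21.08 and 16.58 FPKM in NormMg-HFD and at 13.64, 19.45, 10.63, 9.92 and 8.55 FPKM in LowMg-HFD. LowMg-HFD replicate 2 lay above the lowest NormMg-HFD mouse, and the means differed 1.78-fold (log2 difference -0.83, 95% CI -1.22 to -0.43, adjusted p = 0.0115, limma). Nlrp3 was at 0.56, 0.57, 0.39, 0.48 and 0.53 FPKM in LowMg-HFD, all below the lowest NormMg-HFD mouse at 0.63 FPKM (log2 difference -0.59, 95% CI -0.90 to -0.28, adjusted p = 0.0201). The LowMg-HFD level of 0.506 ± 0.0737 FPKM lay within the range of the low-fat mice, 0.17 to 0.8 FPKM. Tgfb1 was at 52.63, 42.44, 64.67, 50.65 and 41.1 FPKM in NormMg-HFD and at 41.22, 38.32, 28.7, 21.7 and 29.43 FPKM in LowMg-HFD. The groups touched at replicate 1 of LowMg-HFD and replicate 5 of NormMg-HFD, and the log2 difference was -0.66 (95% CI -1.03 to -0.29, adjusted p = 0.0291).

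**Figure D2:**
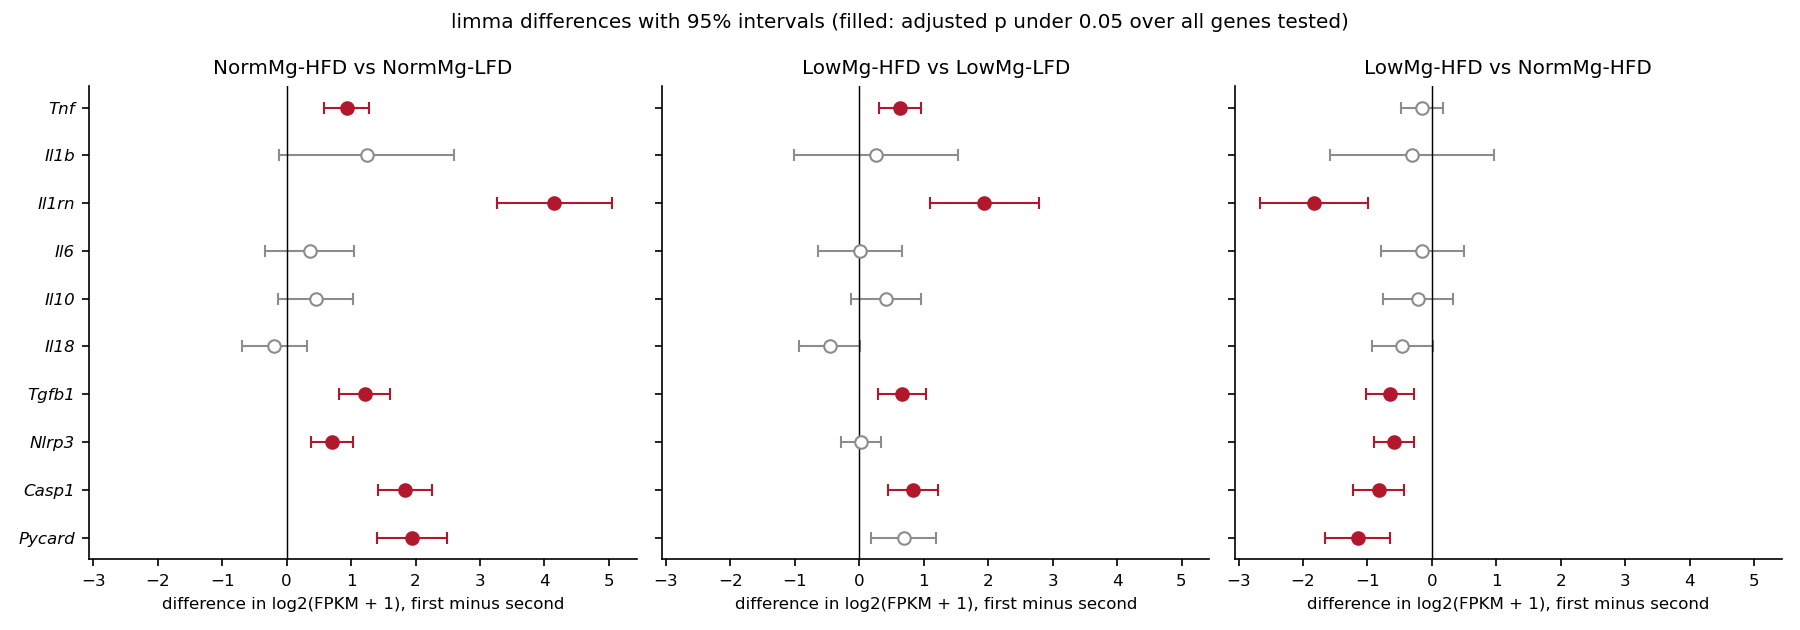
Log2 differences of log2(FPKM + 1) for the 10 genes in 3 pairwise comparisons (points, with 95% confidence intervals from limma as bars; filled points have an adjusted p under 0.05 over 19000 genes; n = 4 for NormMg-LFD and 5 for each other group). Il1rn, Tgfb1, Nlrp3, Casp1 and Pycard lie left of 0 for LowMg-HFD against NormMg-HFD and right of 0, with Tnf, for NormMg-HFD against NormMg-LFD.

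Leaving out 1 mouse at a time kept Il1rn, Pycard and Casp1 called in all 19 fits, Nlrp3 in 17 and Tgfb1 in 13. Nlrp3 missed the threshold without NormMg-HFD replicate 3 (adjusted p = 0.0666, limma) and without LowMg-HFD replicate 3 (adjusted p = 0.0566). Tgfb1 missed it without NormMg-HFD replicate 1, 3 or 4 or LowMg-HFD replicate 3, 4 or 5, with adjusted p between 0.0639 and 0.0977. Nlrp3 also missed it at a pseudocount of 0.1 (adjusted p = 0.0521) and with mice numbered 2 to 5 alone (0.064), and Tgfb1 missed it with libraries centred on their medians (0.0519). With only the 2 high-fat groups in the fit, Pycard alone stayed called, and Il1rn (0.0613), Casp1 (0.0541), Nlrp3 (0.055) and Tgfb1 (0.0696) did not. Without all 3 libraries that stood apart, Pycard alone of the 5 stayed called, with Il1rn at a log2 difference of -1.73 (adjusted p = 0.0588), Casp1 at -0.79 (0.051), Nlrp3 at -0.51 (0.0693) and Tgfb1 at -0.56 (0.116).

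Among the cytokines that did not pass, Il18 was lowest in LowMg-HFD, at 3.33 ± 1.04 FPKM, with a log2 difference of -0.46 from NormMg-HFD (95% CI -0.93 to 0.01, adjusted p = 0.262, limma). Its mice were at 2.62, 3.06, 4.7, 4.07 and 2.19 FPKM in LowMg-HFD and at 3.21, 4.77, 6.16, 3.66 and 7.22 FPKM in NormMg-HFD, and the groups overlapped. Tnf was at 1.18, 1.56, 1.47, 0.84 and 1.3 FPKM in LowMg-HFD, largely the range of NormMg-HFD. Its interval, -0.48 to 0.18 around -0.15 (adjusted p = 0.618), leaves room for a change in either direction of that size. Il10 differed by -0.22 (95% CI -0.76 to 0.33, adjusted p = 0.666), with 11 of the 19 mice at or under 0.14 FPKM.

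Il1b and Il6 turned on a single mouse. Il1b was at 0.25, 0.38, 26.41, 0.51 and 0.38 FPKM in NormMg-HFD, and no mouse of any other group was above 1.97 FPKM. In LowMg-HFD it was at 1.02, 1.26, 0.99, 0.64 and 1.24 FPKM. The group means were 5.59 ± 11.6 and 1.03 ± 0.250 FPKM, and without NormMg-HFD replicate 3 the other 4 averaged 0.38 ± 0.106 FPKM. That mouse was set aside after its Il1b level was seen. The remaining levels were low, so no order of the groups is read from them. The log2 difference was -0.31 with that mouse (95% CI -1.59 to 0.96, adjusted p = 0.809, limma) and 0.55 without it (adjusted p = 0.171), and neither passed the test. Il6 was at 2.99 FPKM in the same mouse and at 0, 0, 0.27 and 0 FPKM in the other NormMg-HFD mice. Its log2 difference was -0.15 with that mouse (adjusted p = 0.826) and 0.24 without it (adjusted p = 0.573). Il10 was highest there too, at 2.09 FPKM against at most 1.21 FPKM in any other mouse.

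That mouse also had the highest level of 5 of the 7 genes of the neutrophil list. The exceptions were Mpo and Elane, granule enzymes of immature neutrophils, at 0.54 and 0.94 FPKM against up to 0.56 and 1.91 FPKM elsewhere, and Ly6g, a neutrophil surface marker, was at 0.37 FPKM and listed at 0 in all other mice. S100a9, a subunit of the neutrophil protein calprotectin, was at 59.99 FPKM against at most 5.42 FPKM elsewhere, and its partner S100a8 was at 70.45 against at most 25.58 FPKM. Csf3r, the receptor of the granulocyte growth factor, was at 18.07 against at most 4.3 FPKM, and the neutrophil-attracting chemokines Cxcl2 and Cxcl3 were at 30.73 and 13.02 against at most 4.21 and 0.35 FPKM. Il1r2, the decoy receptor of IL-1, was at 6.09 against at most 0.67 FPKM. Of the 9857 genes above 5 FPKM in that mouse, 17 were over 3 times their level in every other mouse, Il1b among them, and 2 of the 17 were listed at 0 in all other mice. Il1rn, at 43.4 FPKM, was not set apart there, since NormMg-HFD replicate 1 reached 46.38 FPKM. These genes were named after their values were seen, and what sets this mouse apart was not tested.

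**Figure D3:**
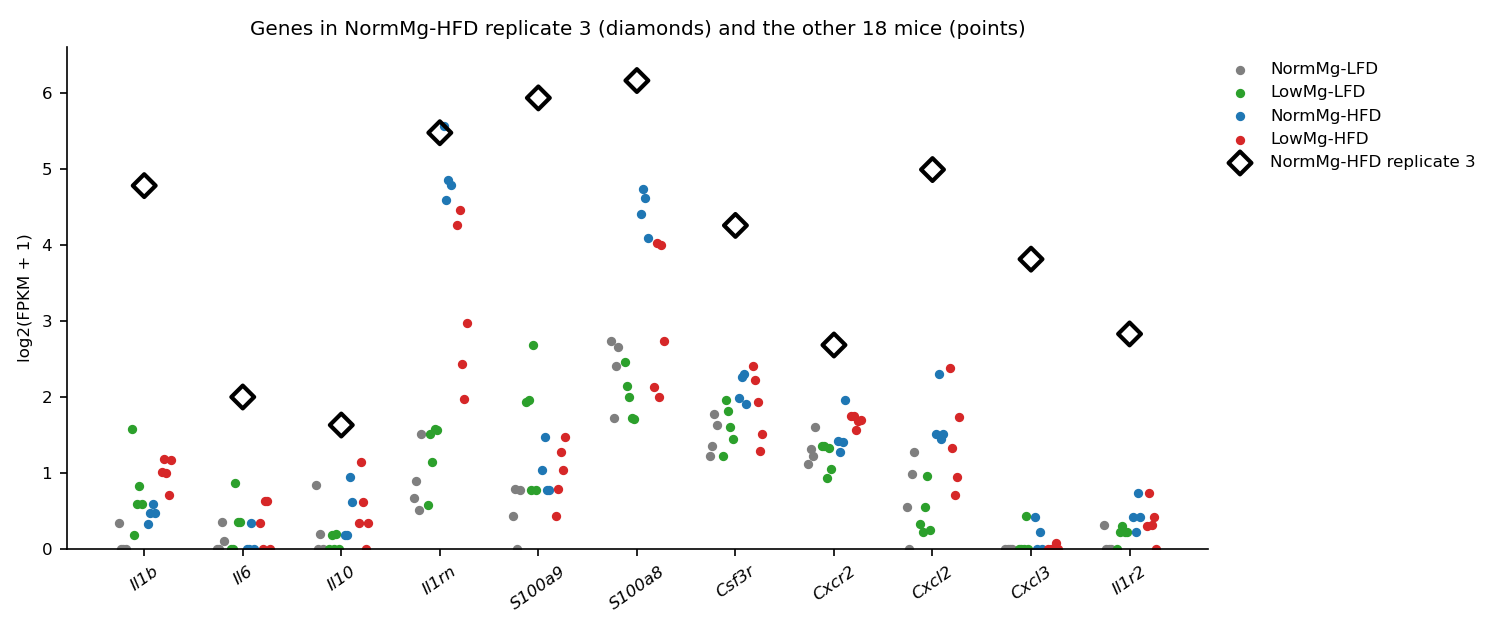
Log2(FPKM + 1) of Il1b, Il6, Il10, Il1rn and 7 genes of neutrophils or inflammation in NormMg-HFD replicate 3 (diamonds) and in the other 18 mice (points, by group). In that mouse Il1b stood at 26.41 FPKM against at most 1.97 FPKM elsewhere, while Il1rn at 43.4 FPKM lay within the NormMg-HFD range.

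The high-fat diet was also compared with the low-fat diet at low Mg2+ (LowMg-HFD against LowMg-LFD). On fat, 4 of the 10 genes were higher, Il1rn, Casp1, Tgfb1 and Tnf, and none was lower. Over all genes tested 866 were higher (4.56%) and 238 were lower (1.25%), and the median log2 difference was 0.52 for the 10 genes and 0.10 for all genes. Il1rn, Casp1 and Tnf did not overlap between the groups, as was so, with the high-fat mice higher, for 756 of all genes (3.98%). Centring each library on its median moved that median of all genes to -0.06, and quantile normalization moved it to -0.02. The share of calls that were lower then went from 21.6% to 61.5% and 56.2%, and Il1rn alone of the 10 genes stayed called under either.

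Il1rn was at 0.49, 1.86, 1.21, 1.99 and 1.96 FPKM in LowMg-LFD, below all 5 LowMg-HFD mice, and its mean was 7.10-fold higher on the high-fat diet (log2 difference 1.94, 95% CI 1.10 to 2.78, adjusted p = 0.0078, limma). Casp1 was 1.97-fold higher (log2 difference 0.83, 95% CI 0.44 to 1.23, adjusted p = 0.013), from 6.30 ± 0.805 FPKM, again with no overlap. Tnf was at 0.59, 0.48, 0.71, 0.48 and 0.12 FPKM in LowMg-LFD, below every LowMg-HFD mouse (log2 difference 0.63, 95% CI 0.30 to 0.95, adjusted p = 0.0224). Tgfb1 was 1.61-fold higher with overlapping groups (log2 difference 0.66, 95% CI 0.29 to 1.03, adjusted p = 0.0331). All 4 calls were lost with only the 2 low-Mg2+ groups in the fit, Il1rn at an adjusted p of 0.0818, Casp1 at 0.0729, Tnf at 0.0717 and Tgfb1 at 0.146. They were lost as well with mice numbered 2 to 5 alone (0.0928, 0.105, 0.102 and 0.29 in the same order). Without the 3 libraries that stood apart, Tnf (0.0502) and Tgfb1 (0.0898) were lost. With libraries centred on their medians or quantile-normalized, Il1rn alone stayed called, and Tnf was at an adjusted p of 0.127 and 0.182. At a pseudocount of 0.1, which weighs low levels more, Tnf alone of the 4 was lost (log2 difference 1.35, adjusted p = 0.0537).

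The other inflammasome genes did not pass here. Pycard was at 3.33, 10.08, 4.78, 10.17 and 5.2 FPKM in LowMg-LFD, and its log2 difference was 0.69 (95% CI 0.18 to 1.20, adjusted p = 0.11, limma). It passed in the fit without LowMg-LFD replicate 4 (adjusted p = 0.0485), the mouse with the highest Pycard of its group and the epididymis genes. Nlrp3 differed by 0.03 (95% CI -0.28 to 0.34, adjusted p = 0.946). Il18 differed by -0.46 (95% CI -0.93 to 0.02, adjusted p = 0.295). Tnf missed the threshold without LowMg-LFD replicate 5 or LowMg-HFD replicate 2, with adjusted p up to 0.0697, and Tgfb1 missed it without LowMg-LFD replicate 1 or 4 or LowMg-HFD replicate 1, 2 or 5, with adjusted p up to 0.108. The 3 comparisons given so far share the NormMg-HFD or LowMg-HFD mice, and their values stand side by side, not as independent evidence.

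On the low-fat diet, low Mg2+ was followed by no call among these genes (LowMg-LFD against NormMg-LFD). The log2 differences ran from -0.20 for Il18 to 0.67 for Il1b, every adjusted p was 0.903 or higher (limma), and the median was 0.13 for the 10 genes and -0.09 for all genes. No gene of the 19000 was called (0%), and 1018 had an unadjusted p under 0.05. Il1b was listed at 0 in 3 of the 4 NormMg-LFD mice and at 0.26 FPKM in the fourth. In LowMg-LFD it was at 1.97, 0.13, 0.51, 0.77 and 0.51 FPKM, and its interval of -0.68 to 2.02 was the widest of the 10. Il1rn differed by 0.38 (95% CI -0.51 to 1.27), Casp1 by 0.17 (95% CI -0.25 to 0.59) and Pycard by 0.11 (95% CI -0.43 to 0.65).

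Whether the difference with Mg2+ was larger on the high-fat than on the low-fat diet was tested as an interaction. None of the 10 genes passed, and none of all genes (0%), although 2676 of them had an unadjusted p under 0.05. The estimates of the 5 genes that were lower on the high-fat diet were all negative: -2.21 for Il1rn (95% CI -3.44 to -0.99, adjusted p = 0.106, limma), -1.26 for Pycard (adjusted p = 0.116), -0.999 for Casp1 (adjusted p = 0.109), -0.67 for Nlrp3 (adjusted p = 0.16) and -0.55 for Tgfb1 (adjusted p = 0.344). Il1rn passed without LowMg-HFD replicate 1 (adjusted p = 0.0472) or replicate 2 (adjusted p = 0.0465), and Casp1 without replicate 2 (adjusted p = 0.0465). A difference with Mg2+ was thus called on the high-fat diet and not on the low-fat diet, but the contrast between the diets did not pass its own test with all mice.

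Among the marker lists of other cell types, macrophage genes moved in the same libraries. Of a list of 16 macrophage genes, 14 were higher in NormMg-HFD than in NormMg-LFD, 14 were lower in LowMg-HFD than NormMg-HFD, and 7 were higher in LowMg-HFD than in LowMg-LFD. Among all genes tested these shares were 13.1%, 5.42% and 4.56%. The 2 not called with Mg2+ on the high-fat diet were Mertk and Cd163, genes of resident macrophages, at log2 differences of 0.13 and 0.27. Adgre1, which encodes the macrophage marker F4/80, was at 13.9 ± 1.23 FPKM in NormMg-LFD, 15.1 ± 2.39 in LowMg-LFD, 112.6 ± 25.4 in NormMg-HFD and 39.9 ± 22.7 in LowMg-HFD. The summed FPKM of the list ran from 829.32 to 960.42 in NormMg-LFD, 634.13 to 1263.93 in LowMg-LFD, 2898.52 to 4745.98 in NormMg-HFD and 959.59 to 2659.32 in LowMg-HFD. No gene of the list was at 0 in every mouse of a group. The mean log2 level of the list was 1.13 lower in LowMg-HFD than NormMg-HFD, with no overlap. The list was chosen with earlier results of these data known, so this difference is a description. In bulk tissue, fewer cells of a type and less RNA per cell cannot be told apart.

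The 2 LowMg-HFD mice with the highest macrophage level, replicates 1 and 2 at a mean log2 of 6.23 and 6.11, were also the highest of their group in Il1rn, Tgfb1, Pycard and Casp1, and the other 3 were between 4.92 and 5.40. Taken relative to the macrophage list within each mouse, the levels behaved differently from gene to gene. Pycard minus the list was -2.01 ± 0.429 in NormMg-LFD, -1.96 ± 0.268 in LowMg-LFD, -2.04 ± 0.401 in NormMg-HFD and -2.06 ± 0.332 in LowMg-HFD on the log2 scale, nearly level over the 4 diets. Casp1 minus the list was also within a narrow range, from -2.20 ± 0.145 in NormMg-HFD to -1.90 ± 0.350 in LowMg-HFD.

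Il1rn rose further than the list on fat, from -3.85 ± 0.512 in NormMg-LFD to -1.67 ± 0.246 in NormMg-HFD, and was at -2.38 ± 0.564 in LowMg-HFD. Tgfb1 minus the list went the other way, from -0.30 ± 0.0830 in NormMg-LFD to -1.06 ± 0.145 in NormMg-HFD and -0.59 ± 0.214 in LowMg-HFD. Il18 minus the list was -2.01 ± 0.304 in NormMg-LFD, -4.19 ± 0.588 in NormMg-HFD and -3.51 ± 0.792 in LowMg-HFD, since Il18 did not rise with the list. These differences are descriptions, and the part of the macrophage genes in the results above was not tested. Of 7 adipocyte genes, 4 were lower and 1 higher on fat at normal Mg2+, against 7.28% and 13.1% of all genes. With low Mg2+ on the high-fat diet 3 of the 7 were higher, against 1.92% of all genes. The part of the adipocyte genes was not tested either. Of 6 genes of fibroblasts and their progenitors, 2 were lower in LowMg-HFD than NormMg-HFD and higher in NormMg-HFD than NormMg-LFD, the collagens Col1a1 and Col3a1, which stand beside Tgfb1. Of all genes tested, 5.42% were lower in the first of these comparisons and 13.1% higher in the second. The summed FPKM of that list ran from 1069.36 to 1520.24 in NormMg-HFD, 605.01 to 737.34 in LowMg-HFD, 529.31 to 661.43 in NormMg-LFD and 335.98 to 588.7 in LowMg-LFD. All 4 mast cell genes were lower in LowMg-HFD than NormMg-HFD (5.42% of all genes), at a summed 13.21 to 28.69 against 22.4 to 68.53 FPKM. None of the mast cell genes passed in the other comparisons. Their sums were 23.23 to 50.88 FPKM in NormMg-LFD and 17.96 to 41.4 FPKM in LowMg-LFD, no gene of either list was at 0 in any mouse, and the part of these lists was not tested.

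The summed FPKM of the 7 neutrophil genes was 22.43 to 155.77 in NormMg-HFD, 10.77 to 22.35 in LowMg-HFD, 7.77 to 10.68 in NormMg-LFD and 6.54 to 12.8 in LowMg-LFD. Outside replicate 3, S100a8 made up most of the NormMg-HFD sums, with 16.08 of the 22.43 FPKM in replicate 5. By mean log2 level of the list the high-fat groups overlapped. NormMg-HFD replicate 5 was at 1.25, and LowMg-HFD replicates 2 and 4 were at 1.32 and 1.30. Of the 5 tested, S100a8 alone was called, lower in LowMg-HFD than NormMg-HFD (log2 difference -1.83, adjusted p = 0.0114, limma) and higher in NormMg-HFD than NormMg-LFD (2.43, adjusted p = 0.00053), with no overlap in either. Ly6g and Mpo were at 0 in most mice. Among 6 dendritic cell genes, Itgax, which macrophages of obese fat also express, was lower with low Mg2+ on the high-fat diet (58.6 to 26.0 FPKM, adjusted p = 0.0291) and higher with fat, and Flt3 was higher and Zbtb46 lower with fat at normal Mg2+. The sums of that list were 18.59 to 25.44 FPKM in NormMg-LFD, 14.65 to 26.01 in LowMg-LFD, 54.82 to 87.84 in NormMg-HFD and 25.05 to 75.91 in LowMg-HFD. Mesothelial genes went down on fat at normal Mg2+ (4 of 5 lower, at a summed 32.75 to 99.2 against 9.43 to 21.49 FPKM), where 7.28% of all genes were lower. None of the 5 passed with Mg2+ on the high-fat diet. No call was made in any comparison among 8 T cell and NK cell genes or 4 B cell genes. The part of these lists in the members' results was not tested.

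**Figure D4:**
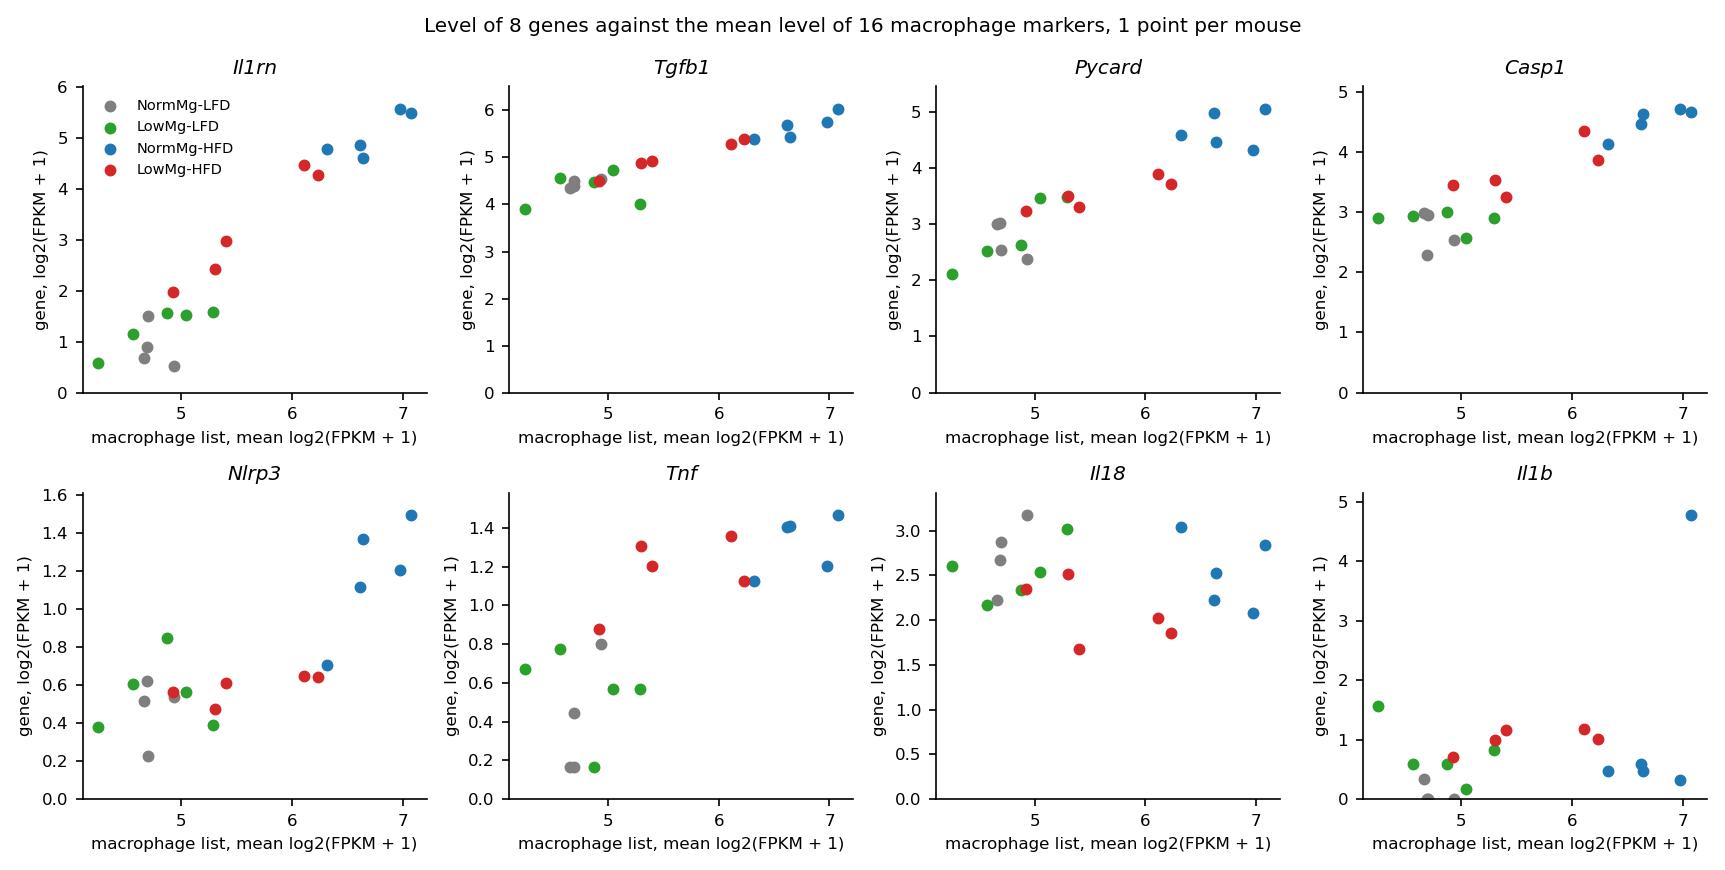
Log2(FPKM + 1) of member genes (y axis) against the mean log2(FPKM + 1) of 16 macrophage genes (x axis) in each of the 19 mice, coloured by group. LowMg-HFD replicates 1 and 2, with macrophage levels of 6.23 and 6.11, lie nearest to the NormMg-HFD mice for Il1rn and Tgfb1, and Il18 shows no rise with the list.

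Of 59 further genes of the same pathways, 10 were lower and none was higher in LowMg-HFD than in NormMg-HFD, where 5.42% of all genes tested were lower. In NormMg-HFD against NormMg-LFD 23 were higher and 2 lower (13.1% and 7.28% of all genes), in LowMg-HFD against LowMg-LFD 5 were higher (4.56% of all genes), and none passed with Mg2+ on the low-fat diet. Their median log2 difference with Mg2+ on the high-fat diet was -0.19, against 0.03 for all genes. In a list of 13 genes, a single call is close to the share among all genes, and nothing is read from it about a pathway. Both chains of the IL-10 receptor were among the 10, Il10ra at a log2 difference of -0.90 (adjusted p = 0.0062, limma) and Il10rb at -0.61 (adjusted p = 0.0165), while Il10 itself was at low levels and did not pass. Il10ra was at 4.72 FPKM in NormMg-LFD, 5.04 in LowMg-LFD, 16.5 in NormMg-HFD and 8.60 in LowMg-HFD. Of 13 TNF pathway genes, 4 were lower: the receptor Tnfrsf1b (-0.97, adjusted p = 0.0065), the adaptor Tradd (-0.70, adjusted p = 0.0216), the protease Adam17 that sheds TNF (-0.61, adjusted p = 0.0253) and the NF-kB subunit Nfkb2 (-0.52, adjusted p = 0.0176).

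Tnf itself did not pass in that comparison. Tnfrsf1b was at 11.1 FPKM in NormMg-LFD, 9.99 in LowMg-LFD, 37.3 in NormMg-HFD and 19.4 in LowMg-HFD. Of 11 further inflammasome genes, 2 were lower: Nlrc4, a sensor of bacterial proteins (-0.57, adjusted p = 0.042), and P2rx7, the ATP-gated channel that triggers NLRP3 (-0.78, adjusted p = 0.0391). Of 13 genes of IL-1 and IL-18 signalling, 1 was lower, the IL-33 receptor Il1rl1 (-0.70, adjusted p = 0.0101), and of 13 TGF-beta genes 1 was lower, the receptor Tgfbr1 (-0.48, adjusted p = 0.0483). None of 6 IL-6 pathway genes passed.

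The receptors Il10ra and Tnfrsf1b held in all 30 alternative fits, whereas Tgfbr1 held in 9, Nlrc4 in 10 of 29, P2rx7 in 18 and Adam17 in 19. Leaving out 1 mouse at a time ended the call of Tgfbr1 in 14 of 19 fits (adjusted p up to 0.135, limma), of Nlrc4 in 11 (up to 0.116), and of P2rx7 and Adam17 in 7 each (up to 0.109 and 0.0663). Tgfbr1 stayed called without NormMg-LFD replicate 4, LowMg-LFD replicate 4, NormMg-HFD replicate 2 or 5 or LowMg-HFD replicate 2, and Nlrc4 lost its call without NormMg-LFD replicate 2, 3 or 5, NormMg-HFD replicates 1 to 4 or LowMg-HFD replicates 2 to 5. For P2rx7 and Adam17 the mice were NormMg-HFD replicates 1 to 4 and LowMg-HFD replicates 3 to 5. Tradd lost its call without NormMg-HFD replicate 2 or 4 or LowMg-HFD replicate 4 (adjusted p up to 0.056), and Nfkb2 and Il10rb lost theirs without NormMg-HFD replicate 3 (adjusted p = 0.0613 and 0.0593). Without all 3 libraries that stood apart, Il10ra (adjusted p = 0.0373), Tnfrsf1b (0.04) and Il1rl1 (0.045) stayed called. Tradd (0.0674), Il10rb (0.0683), Adam17 (0.07), Nfkb2 (0.0864), P2rx7 (0.128), Nlrc4 (0.134) and Tgfbr1 (0.144) did not. With fat at normal Mg2+, 8 of the 11 inflammasome genes were higher, Nlrp1a, Nlrp1b, Nlrc4, Aim2, Casp4, Gsdmd, P2rx7 and Panx1. Nlrp1a and Nlrp1b are near-identical copies whose reads may be split between them.

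The genes most alike to the more abundant members were taken as the 3 with the highest Pearson correlation of log2(FPKM + 1) over the 19 mice, a measure into which the differences between the diets enter, so the value after removing group means is given too. Il1rn was most like Ctsz (r = 0.989), Adam8 (r = 0.987) and Lipa (r = 0.987), and after removing group means the values were 0.938, 0.933 and 0.901. Tgfb1 was most like Actb (r = 0.983), Pfn1 (r = 0.971) and Cd84 (r = 0.969), with 0.92, 0.863 and 0.858 after that removal. For Casp1 they were Prcp (r = 0.971), Tnip3 (r = 0.97) and Atp6v1b2 (r = 0.959), falling to 0.759, 0.784 and 0.68. For Pycard they were Pcna (r = 0.949), Metrnl (r = 0.948) and Ccl9 (r = 0.947), falling to 0.698, 0.708 and 0.739. Il1b was most like S100a9 (r = 0.87), Rgs16 (r = 0.779) and Cxcl2 (r = 0.771), with 0.888, 0.772 and 0.822 after that removal, and S100a9 and Cxcl2 were, like Il1b, highest in NormMg-HFD replicate 3. Il18 was most like Il7 (r = 0.766), Dtnbp1 (r = 0.765) and Rae1 (r = 0.765), with 0.851, 0.614 and 0.787, and stood apart from Casp1 (r = -0.258), the enzyme that processes its product.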

How the data were processed

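The authors sequenced total eWAT RNA of 19 mice as single-end reads, 1 library per mouse, mapped them to the mouse transcriptome (GRCm38/mm10; the submitters' processing notes name HISAT and Bowtie2) and deposited gene-level FPKM values made with RSEM 1.2.31. Total read counts and mapped percent per library were also deposited. Whether the libraries were stranded is not given in the sources used here. Of 24238 genes, 1 with a cell that was not a number was left out. Genes with a mean above 0.1 FPKM (19000) were tested on log2(FPKM + 1), a pseudocount of 1, with limma 3.58.1 in R 4.3.3, as 4 group means in 1 fit over all mice with a trended variance and Benjamini-Hochberg adjustment at 0.05. The fit was tested on simulated data. The filter in the study's methods, a group mean above 8 FPKM with at least 4 mice of that group above 8 FPKM, was run as an alternative. The unit of that threshold is not given in the sources used here and was taken as FPKM, which left 8336 genes. The 10 genes and all lists were chosen with earlier results of these data known. Named genes were the 10 members, pathway genes called with Mg2+ on the high-fat diet, and the 3 most alike per member with a mean above 1 FPKM, and other genes were named after their values were seen. Groups came from the labels. FPKM hold no read counts per gene, so counting error per gene was not computed. No member sequence other than the promoter windows was used.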

Additional observations from a re-analysis of the deposited data

Results flagged for a closer look

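In 40 sets of values (10 genes in 4 groups), the highest or lowest mouse was tested for its distance from the others of its group by Dixon's ratio, and 4 values, from 3 mice, stood out. Chance gives about 1 in 20 for normally distributed values, a rate that need not hold for FPKM with values at 0. Il1b was at 26.41 FPKM in NormMg-HFD replicate 3 against 0.51 FPKM in the next mouse, and Il6 was at 2.99 FPKM in the same mouse against 0.27 FPKM in the next. Il1b was at 0.26 FPKM in NormMg-LFD replicate 2 and listed at 0 in the other mice of that group, where any level above 0 is flagged. Casp1 was at 4.91 FPKM in LowMg-LFD replicate 2, the lowest of its group, with the next at 6.48 FPKM.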

How the results depend on the processing

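The numbers of genes changed, counted in either direction, moved with the samples in the fit. For LowMg-HFD against NormMg-HFD there were 1394 with all mice, 760 with only the groups compared, 899 with the replicate block, 510 without the 3 libraries that stood apart and 726 to 1586 with 1 mouse left out. For NormMg-HFD against NormMg-LFD there were 3871, with 2469 without the 3 libraries and 3076 to 4766 with 1 mouse left out. The 4766 came without LowMg-HFD replicate 4, a mouse outside that comparison. Without it, genes with an unadjusted p under 0.05 there went from 5941 to 7192. For Mg2+ on the low-fat diet they went from 1018 to 1656. For LowMg-HFD against LowMg-LFD there were 1104, and 122 with only the groups compared, 65 with the replicate block, 152 with mice numbered 2 to 5 and 578 to 1310 with 1 mouse left out. Mg2+ on the low-fat diet gave 0, with 1 under no filter and 0 to 1 with 1 mouse left out. The interaction gave 0, with 1 at a pseudocount of 0.1, 2 with no filter, 104 with the study's filter, 3 with quantile normalization, 1 without the 3 libraries and 0 to 190 with 1 mouse left out. Of the 10 members, Mg2+ on the high-fat diet called 5, but 1 with only the groups compared, 3 with the replicate block, 1 without the 3 libraries and 3 to 5 with 1 mouse left out. Fat at low Mg2+ called 4, but 1 with median centring or quantile normalization, 0 with only the groups compared, the replicate block or mice numbered 2 to 5, 2 without the 3 libraries and 2 to 4 with 1 mouse left out. The interaction called 0 to 2 members with 1 mouse left out. Deviations from the group means correlated above 0.1 in 6 of 27 same-numbered pairs of mice (r from -0.201 to 0.406, median -0.0129). They did so in 18 of 108 pairs with other numbers (r from -0.478 to 0.284, median -0.00247). The highest r was thus of a same-numbered pair, but the numbers were not taken to pair mice. The fit with the replicate block drops replicate 1. No uncalled value that turned sign passed the test in either direction: for Mg2+ on the high-fat diet Il1b was 0.067 at a pseudocount of 0.1, 0.55 without the 3 libraries and -0.56 to 0.55 with 1 mouse left out, Il6 was 0.090, 0.24 and -0.26 to 0.24, and Il10 was 0.013 without the 3 libraries and -0.38 to 0.013. For fat, Il6 was -0.065 without the 3 libraries and -0.027 to 0.47 at normal Mg2+. At low Mg2+ Il6 was -0.16 with median centring, -0.11 with quantile normalization, -0.078 with the block or mice numbered 2 to 5 and -0.072 to 0.14 with 1 mouse left out, and Nlrp3 was -0.14, -0.052, -0.026, -0.026 and -0.013 to 0.10, and -0.0097 without the 3 libraries. Fewer samples entered the fits with only the groups compared, the block and mice left out. The cause was not tested elsewhere. At a pseudocount of 0.1 Il1b was called higher on fat at normal Mg2+ (2.94, adjusted p = 0.0356, limma). Casp1 and Nlrp3 were the members lost with the replicate block for Mg2+ on the high-fat diet (adjusted p = 0.0639 and 0.0899). With 4 or 5 mice per group, the 95% interval for Il1b in that comparison ran from -1.59 to 0.96, and whether smaller changes could be detected was not tested.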
